A study of Mus musculus with 6 samples.

Results

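Genes that mark epithelium and mesothelium were followed in RNA from the ductus arteriosus (DA), the fetal vessel that joins the pulmonary artery to the aorta. The set held 10 genes, *Cdh1*, *Epcam*, *Krt5*, *Krt8*, *Krt18*, *Krt19*, *Nkx2-1*, *Wt1*, *Msln*, and *Upk3b*. They were picked by gene symbol, as genes of the airway, oesophageal, or mesothelial tissue beside the vessel. All 10 had a row among the 23997 genes of the table. Read as a description of the samples, the set fell into parts. *Cdh1* and *Epcam*, which mark epithelium, and *Krt5*, of the basal layer of stratified epithelia, were at or near 0. Simple keratins and mesothelial genes were present in every library. *Nkx2-1*, a transcription factor of lung and thyroid endoderm, was low but also above 0 in every library.

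The libraries came from the DA of untreated C57BL/6 embryos at E17.5. WT0, WT1, and WT2 came from wild-type littermates. KO0, KO1, and KO2 were labelled *Prdm6f/f; SM22-Cre*, which means that both copies of *Prdm6* were floxed and that a transgene expressed Cre recombinase from the *SM22* promoter in smooth muscle cells. *Prdm6* encodes a transcriptional regulator of the PRDM family. The sources used here do not say whether a library was the DA of 1 embryo or of several, nor whether the WT embryos carried a floxed allele or Cre.

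Each value is an FPKM, a count of sequenced fragments scaled by transcript length and by the total of mapped fragments, so levels can be compared between genes. The upper quartile of the libraries was 10.4 to 10.8 FPKM. The number of genes listed at 0 was 8338 to 11886 per library. Of the 3506 genes with a mean of at least 20 FPKM, between 34 and 61 were listed at 0 in a given library, so an exact 0 in this table may be a failed estimate. The smooth muscle genes that define the vessel were present in all libraries, with sums of 9 genes of 2505 to 5762 FPKM in WT and 912 to 2391 FPKM in KO. *Prdm6* itself was listed at 41.7, 48.4, and 19.8 FPKM in WT0 to WT2 and at 48.6, 27.1, and 15.4 FPKM in KO0 to KO2, and because the floxed part of the gene is not stated, this gene-level value does not check the labels. WT1 and KO2 stood apart in 10 heart muscle genes, with sums of 1681 and 1942 FPKM against 62.7 to 469 FPKM in the other libraries. KO0 held both the female transcript *Xist*, at 81.0 FPKM, and the Y-linked transcript *Ddx3y*, at 26.4 FPKM, unlike any other library. Results are therefore also given without KO0, and without WT1 and KO2, where that changed them.

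Epithelial cells are joined into sheets by E-cadherin, and their keratin filaments come as pairs of an acidic and a basic keratin. Simple epithelia use Krt8 with Krt18 and Krt19, whereas the basal layer of stratified epithelia such as the oesophagus uses Krt5. Mesothelium is the flat lining of the pleural, pericardial, and peritoneal cavities and of the organs in them. It makes simple keratins as epithelia do, but it derives from mesoderm and also makes Wt1, mesothelin, and uroplakin 3b. In the fetal chest the airway, the oesophagus, the pericardium, and the pleura lie close to the DA.

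The 3 epithelial genes *Cdh1*, *Epcam*, and *Krt5* were barely detected. *Cdh1*, which encodes E-cadherin, was listed at 0, 0.627, and 0 FPKM in WT0 to WT2 and at 0.215, 0.155, and 0.987 FPKM in KO0 to KO2. *Epcam*, which encodes an adhesion molecule of nearly all simple epithelia, was at 0.165 FPKM in WT1 and 0.362 FPKM in KO2, and it was listed at 0 in the other 4 libraries. *Krt5* was at 0.271 FPKM in WT1 and was listed at 0 in the other 5. On GRCm38, *Cdh1* lies on chromosome 8 at 106603351 to 106670246 (+), *Epcam* on chromosome 17 at 87635979 to 87651129 (+), and *Krt5* on chromosome 15 at 101707070 to 101712898 (−). All 3 genes were under 1 FPKM in every library. The sum of the 3 was highest in KO2 and in WT1, at 1.35 and 1.06 FPKM, the same libraries that were high in heart muscle genes. It was 0 to 0.215 FPKM in the other 4. KO2 and WT1 also had the fewest genes of the whole table listed at 0, 8338 and 8832, against 9586 to 11886 in the other 4. The part of adjoining tissue, or of the detection of low values, in these sums was not tested.

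These 3 genes fell under the filter on low values, a mean of at least 1 FPKM, and so were not tested in the comparison of the groups. In a fit with no filter, on log2(FPKM + 0.1), the log2 fold change of KO over WT was 1.20 (SE 1.11, limma adjusted p = 0.752) for *Cdh1*. It was 0.27 (SE 0.84, limma adjusted p = 0.929) for *Epcam*. *Krt5* was listed at 0 in all KO libraries, so no fold change is given for it, and its limma adjusted p was 0.770. At these levels such fits rest on whether a library was listed at 0, and a difference was not detectable.

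The 6 genes that RefSeq matched to a promoter on GRCm38.p6 were *Epcam*, *Krt5*, *Krt8*, *Krt18*, *Nkx2-1*, and *Upk3b*. *Cdh1*, *Krt19*, *Wt1*, and *Msln* had no match. Below are the windows of *Epcam*, the epithelial gene near 0, and of *Krt8* and *Krt18*, the neighbouring partner keratins that were present. Each window runs from 250 bases before to 50 bases after the RefSeq start of the gene, 5′ to 3′ on its own strand. For *Krt8* and *Krt18* that start differs from the one in the gene positions given here, which are from another annotation. Capitals mark the motifs found on either strand, which were the TATA box TATAAA, the GC box GGGCGG, the EGR and WT1 family motif GCGNGGGCG, and the E-box CACCTG. The E-box is the sequence to which the repressors Snai1, Snai2, Zeb1, and Zeb2 are known to bind at the *Cdh1* promoter. The windows are *Epcam* at chr17:87635729-87636028 (+), *Krt8* at chr15:102004293-102004592 (−), and *Krt18* at chr15:102027966-102028265 (+).
Epcam: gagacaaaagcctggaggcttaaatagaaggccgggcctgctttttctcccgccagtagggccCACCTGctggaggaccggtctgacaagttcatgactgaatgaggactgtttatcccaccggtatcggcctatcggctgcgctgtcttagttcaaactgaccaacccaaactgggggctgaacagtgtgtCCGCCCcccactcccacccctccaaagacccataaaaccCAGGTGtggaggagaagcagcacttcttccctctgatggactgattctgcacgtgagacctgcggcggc
Krt8: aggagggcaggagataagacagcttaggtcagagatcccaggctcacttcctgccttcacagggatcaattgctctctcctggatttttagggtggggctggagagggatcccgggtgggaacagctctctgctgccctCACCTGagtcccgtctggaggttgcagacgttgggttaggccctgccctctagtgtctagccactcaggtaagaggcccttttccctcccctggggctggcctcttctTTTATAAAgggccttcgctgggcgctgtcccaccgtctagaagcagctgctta
Krt18: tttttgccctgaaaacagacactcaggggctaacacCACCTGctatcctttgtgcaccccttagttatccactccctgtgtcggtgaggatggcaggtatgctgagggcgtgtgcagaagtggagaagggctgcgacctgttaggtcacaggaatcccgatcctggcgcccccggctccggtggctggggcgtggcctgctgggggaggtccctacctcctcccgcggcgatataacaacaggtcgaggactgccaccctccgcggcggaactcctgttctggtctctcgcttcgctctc

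The *Epcam* window held 2 E-boxes and 1 GC box. The *Krt8* window held 1 E-box and a TATA box that reads on both strands, as 2 overlapping matches. The *Krt18* window held 1 E-box. Of the other 3 windows, that of *Krt5* held 1 E-box, that of *Nkx2-1* held 1 E-box and 1 GC box, and that of *Upk3b* held none of the motifs. The E-box was thus in 5 of the 6 windows and in 20.2% of all 32851 RefSeq promoter windows. The GC box was in 35.7% of all windows, the TATA box in 13.6%, and the EGR and WT1 family motif in 5.55%. GC content was 57.0%, 58.0%, and 61.3% in the 3 windows shown, against a median of 52.7% over all windows. A GC box can share bases with the EGR and WT1 family motif, but none of the 6 windows held the latter. The letters describe the windows and do not show that a factor was bound.

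Other epithelial genes were mostly low, though not all as low as *Cdh1* and *Epcam*. Of 26 epithelial junction and keratin genes, 17 had a mean under 1 FPKM, and the median of the means was 0.399 FPKM. *Cldn6*, *Esrp1*, and *Ap1m2* were among those listed at 0 in every library. *Esrp1* encodes an epithelial splicing factor and *Ap1m2* the epithelial subunit of a sorting adaptor. The other 9 had a mean of at least 1 FPKM. The highest were *Cdh3* (P-cadherin), *Dsp* (desmoplakin, which also joins heart muscle cells), and *Krt7*, which mesothelium makes too. *Spint2*, which encodes a protease inhibitor of epithelia, and *Lsr*, which encodes a protein of tricellular junctions, followed, with means of 9.45 and 7.96 FPKM. Both were above 0 in every library, at 2.56 to 18.8 FPKM and 5.20 to 10.8 FPKM, and both means were above that of *Krt8*, at 5.91 FPKM.

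Of 19 genes of airway and lung epithelium, 14 had a mean under 1 FPKM, with a median of the means of 0.342 FPKM. *Scgb1a1*, the secretoglobin of club cells, was at 17.3 FPKM in KO0 and was listed at 0 in the other 5 libraries. *Sftpc*, the surfactant protein of alveolar type II cells, was at 6.71 FPKM in KO0, 3.69 FPKM in KO1, and 0.978 FPKM in WT1, and it was listed at 0 in WT0, WT2, and KO2. *Foxa2*, a lung endoderm factor, was at 1.35 FPKM in KO0 alone. The number of the 19 genes above 0 was 5, 8, and 3 in WT0 to WT2 and 13, 8, and 10 in KO0 to KO2. A difference between the groups in these counts was not tested. KO0 had the most, yet *Epcam* was listed at 0 in it. The airway genes with the highest means, *Cbr2*, *Abca3*, and *Etv5*, were present in all libraries. That included WT0 and WT2, where *Scgb1a1*, *Sftpc*, and *Foxa2* were all listed at 0.

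Of 10 genes of oesophageal and stratified epithelium, 4 had a mean under 1 FPKM, with a median of 1.08 FPKM. The highest was *Perp*, a desmosomal protein, at 12.3 to 30.7 FPKM. It was followed by *Sfn*, which encodes 14-3-3 sigma, at 0 to 6.89 FPKM. *Krt13*, a keratin of the upper layers of stratified epithelium, was listed at 0, 0.885, and 7.04 FPKM in WT0 to WT2 and at 8.95, 2.06, and 0.865 FPKM in KO0 to KO2. Its highest values, in KO0 and WT2, lay in different groups. All 10 genes of thymus, thyroid, and parathyroid epithelium had a mean under 1 FPKM, and 7 of them were listed at 0 throughout. The 3 that were not were *Calca*, *Psmb11*, and *Tg*, with no value above 1.85 FPKM.

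**Figure D1:**
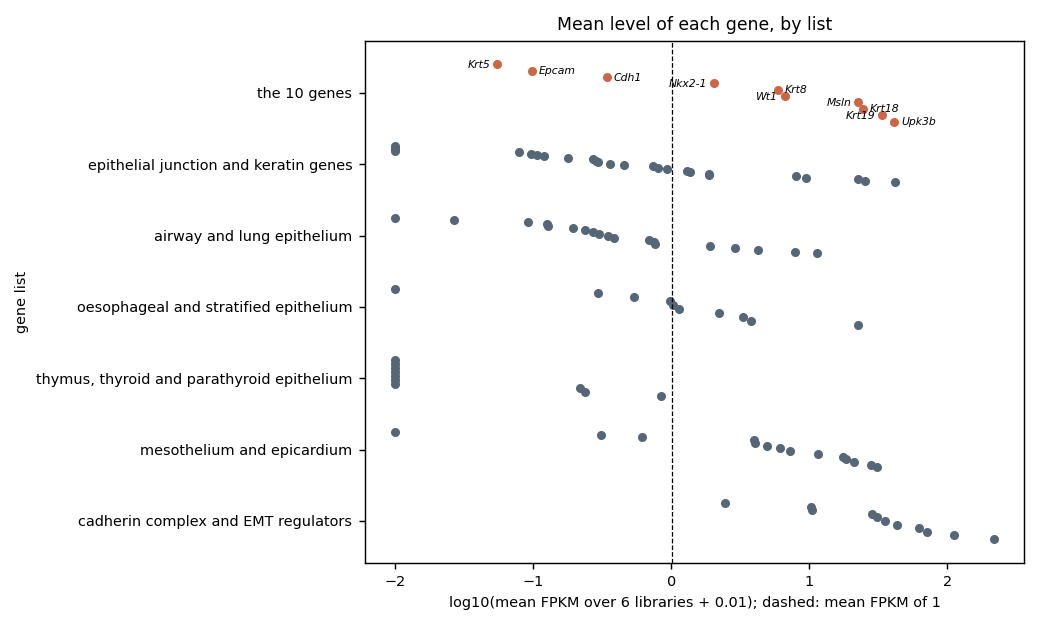
Each point is 1 gene, placed at log10 of its mean FPKM over the 6 libraries plus 0.01, in rows for the 10 genes and for 6 lists, with points at the far left listed at 0 in all libraries. *Krt5*, *Epcam*, and *Cdh1* lie left of the dashed line at a mean of 1 FPKM, as do 17 of 26 junction and keratin genes and 14 of 19 airway genes, whereas 11 of 14 mesothelial genes lie right of it.

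The simple keratins were present in every library. *Krt8*, the basic keratin of simple epithelia, was at 4.19, 3.20, and 5.78 FPKM in WT0 to WT2 and at 3.51, 10.1, and 8.66 FPKM in KO0 to KO2. KO1 and KO2 lay above all WT libraries, and KO0 lay among them. Its log2 fold change was 0.65 (SE 0.51, 95% interval −0.54 to 1.84, limma adjusted p = 0.720). Without KO0 the groups did not overlap, and the change still did not pass the test, with an adjusted p of 0.747 in the limma fit.

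*Krt18*, the acidic partner of Krt8, was at 30.8, 11.5, and 47.0 FPKM in WT0 to WT2 and at 24.3, 23.9, and 8.30 FPKM in KO0 to KO2. Its lowest values were in KO2 and WT1, which were high in heart muscle genes, and the groups overlapped through WT1. For *Krt18* the log2 fold change was −0.59 (SE 0.60, 95% interval −1.98 to 0.80, limma adjusted p = 0.761). Without WT1, or without WT1 and KO2, the groups did not overlap. The limma adjusted p was 0.513 without WT1 and 0.791 without both.

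*Krt19*, the acidic keratin that lacks most of the tail domain, was at 10.01, 19.6, and 56.0 FPKM in WT0 to WT2 and at 23.0, 44.0, and 49.8 FPKM in KO0 to KO2. The spread within WT took in the whole range of KO. For *Krt19* it was 0.73 (SE 0.60, 95% interval −0.67 to 2.12, limma adjusted p = 0.727). Only the omission of WT2 separated the groups.

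Although Krt8 and Krt18 form filaments together, their transcripts did not keep a fixed ratio. The level of *Krt18* over that of *Krt8* was 7.35, 3.58, and 8.14 in WT0 to WT2 and 6.90, 2.37, and 0.957 in KO0 to KO2, which is an 8.50-fold range. It was low in KO1 and KO2, and it was as high in KO0 as in WT. The genes lie side by side on chromosome 15, *Krt8* at 101996698 to 102004482 on the minus strand and *Krt18* at 102028180 to 102032027 on the plus strand of GRCm38, with 23697 bases between them. The annotation also holds a lincRNA on the opposite strand within *Krt8* and 1 pseudogene named for it, *Krt8-ps*, and the counting of shared reads is not stated, so the *Krt8* value is uncertain to that extent. *Krt19* lies elsewhere, on chromosome 11 at 100140810 to 100148665 on the minus strand. *Krt19* over *Krt18* ran from 0.325 in WT0 to 6.01 in KO2.

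Most of the keratin family was listed at 0. Of 52 keratin genes in the table, 30 were listed at 0 in all libraries, 9 had a mean of at least 1 FPKM, and 4 had a mean of at least 5 FPKM. Those 4 were *Krt19*, *Krt18*, *Krt7*, and *Krt8*, all keratins of simple epithelia and of mesothelium. *Krt7* was at 8.37, 8.43, and 61.9 FPKM in WT0 to WT2 and at 13.8, 20.1, and 23.6 FPKM in KO0 to KO2. Like *Krt18*, *Krt19*, and *Upk3b*, it was highest in WT2. The keratins between 1 and 5 FPKM were *Krt80*, *Krt13*, *Krt14*, *Krt20*, and *Krt15*, and each of them was listed at 0 in at least 1 library. None of the 9 passed the test.

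*Nkx2-1*, the transcription factor of lung and thyroid endoderm, was low but present, at 1.76, 1.64, and 2.16 FPKM in WT0 to WT2 and at 2.96, 2.92, and 0.763 FPKM in KO0 to KO2. KO2 was the lowest library, and KO0 and KO1 were the highest. The log2 fold change was 0.041 (SE 0.77, 95% interval −1.74 to 1.82, limma adjusted p = 0.989). Without KO2, or without WT1 and KO2, the groups did not overlap, and the gene still did not pass the test. The log2 fold change turned to −0.27 without KO0 and to −0.26 without KO1. The gene lies on chromosome 12 at 56531958 to 56536908 on the minus strand, and an antisense gene, *Gm26973*, overlaps it. Whether strand was used in the counting is not stated, so reads of the pair cannot be told apart. KO0 and KO1, the libraries highest in *Nkx2-1*, were also those highest in *Sftpc*, whereas *Scgb1a1* was above 0 in KO0 alone.

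The mesothelial genes were present in every library, and they varied widely between libraries of the same group. *Upk3b*, a uroplakin of the mesothelial surface, had the highest mean of the 10 genes, at 40.9 FPKM. It was at 11.7, 31.2, and 80.1 FPKM in WT0 to WT2 and at 7.30, 52.1, and 63.3 FPKM in KO0 to KO2. Each group thus held a low, a middle, and a high library. The group means were 41.0 ± 35.2 FPKM in WT and 40.9 ± 29.6 FPKM in KO (SD, n = 3 each). Accordingly, the log2 fold change was −0.091 (SE 0.93, 95% interval −2.26 to 2.08, limma adjusted p = 0.981). It turned to 0.90 without KO0 and to 0.60 without WT2, and the gene did not pass the test in either fit.

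*Msln*, which encodes the surface protein mesothelin, was at 8.65, 2.05, and 35.0 FPKM in WT0 to WT2 and at 16.6, 31.1, and 42.7 FPKM in KO0 to KO2. WT0 and WT1 lay below all KO libraries, and WT2 lay among them. The means were 15.2 ± 17.46 FPKM in WT and 30.1 ± 13.1 FPKM in KO (SD, n = 3 each). The log2 fold change of 1.69 was the largest of the set (SE 0.91, 95% interval −0.43 to 3.81), and it did not pass the test (limma adjusted p = 0.649). It was 2.70 without WT2, with groups that did not overlap and a limma adjusted p of 0.470, 0.68 without WT1, and 0.38 without WT1 and KO2.

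*Wt1*, the transcription factor of mesothelium and epicardium, was at 1.29, 8.59, and 8.76 FPKM in WT0 to WT2 and at 7.14, 3.51, and 11.0 FPKM in KO0 to KO2. WT0 was far below the rest, and the other 5 libraries overlapped across the groups. The log2 fold change was 0.48 (SE 0.80, 95% interval −1.38 to 2.34, limma adjusted p = 0.853), and without WT0 it was −0.41. *Wt1* and *Msln* did not rank the libraries alike, since WT1 was high in *Wt1* and lowest in *Msln*. The 3 mesothelial genes lie apart, *Upk3b* on chromosome 5 at 136038496 to 136046487 (+), *Msln* on chromosome 17 at 25748613 to 25754378 (−), and *Wt1* on chromosome 2 at 105126529 to 105173616 (+). *Upk3b* over *Msln* ran from 0.439 in KO0 to 15.2 in WT1.

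**Figure D2:**
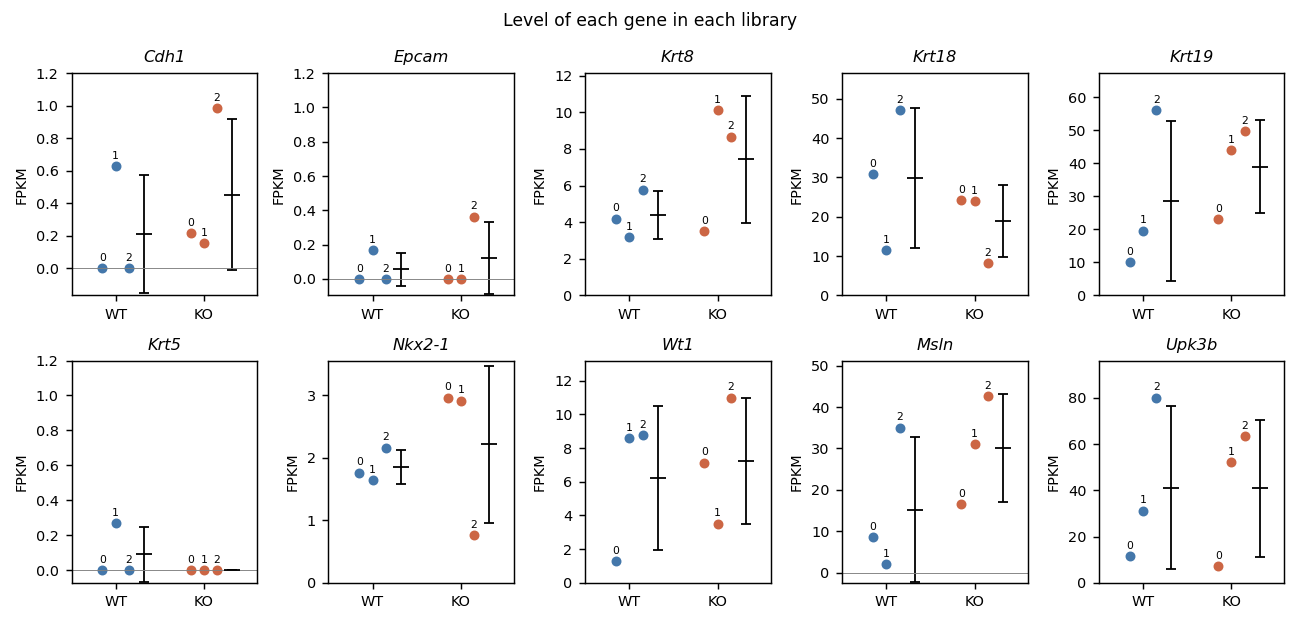
FPKM of each of the 10 genes in each library, with blue points for WT and red points for KO, the replicate number above each point, and the mean and SD of each group (n = 3) as a black bar. The groups overlap for every gene, and *Cdh1*, *Epcam*, and *Krt5* stay under 1 FPKM in all libraries.

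In all, 7 of the 10 genes were tested, and 0 of them passed an adjusted p of 0.05 in the limma fit, against 1 of all 12955 genes tested, which is 0.00772%. The number with an unadjusted p under 0.05 was 0 of 7, against 8.28% of all genes. The number whose groups did not overlap was 0 of 7, against 16.1% of all genes. *Krt8*, *Krt19*, *Nkx2-1*, *Wt1*, and *Msln* were higher in KO by the fitted value, and *Krt18* and *Upk3b* were lower. The median log2 fold change of the 7 was 0.48, and that of all genes tested was 0.072. The SEs of the 7, 0.51 to 0.93, were above the median SE of 0.41 over all genes, at the 61.3 to 80.1 percentiles. The intervals therefore took in changes of more than 1 log2 unit for each of the 7 in at least 1 direction, and changes of that size were not excluded. By the exact permutation test, whose smallest possible p is 0.1 with 3 libraries a group, the two-sided p of the 7 was 0.3 to 1.

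With 2 libraries in a group, more genes separate by construction. The groups of 1 gene of the 7 did not overlap without WT1, against 28.9% of all genes, and those of 2 genes without WT2, against 25.9%. Without KO0 it was 1 gene, against 26.7%, and without KO2 it was 1, against 25.2%. Without both WT1 and KO2 it was 2 genes, against 38.0%. They were *Krt18* without WT1, *Krt19* and *Msln* without WT2, *Krt8* without KO0, *Nkx2-1* without KO2, and *Krt18* and *Nkx2-1* without WT1 and KO2. The number was 0 without WT0 and without KO1, and 0 genes of the set passed an adjusted p of 0.05 in limma under any of these settings.

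**Figure D3:**
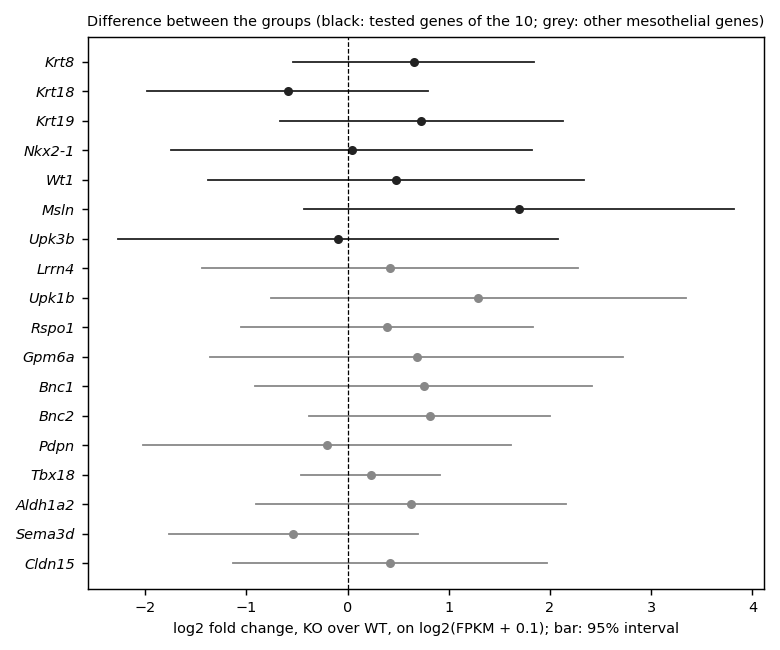
Log2 fold change of KO over WT with its 95% interval from the limma fit, on log2(FPKM + 0.1), for the 7 tested genes of the set (black) and 11 other mesothelial genes (grey). Every interval crosses 0, with *Msln* the farthest to the right at 1.69.

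Of the 15 other genes listed for mesothelium and epicardium, 14 had a row and 11 were tested, of which 9 were higher and 2 lower in KO by the fitted value. None of the 11 passed the test, the lowest limma adjusted p was 0.680, and the groups overlapped for all of them. Of all genes tested, 55.6% were higher in KO by the fitted value, 0.00772% passed the test, and 16.1% had groups that did not overlap. The median log2 fold change of the 11 was 0.42. The highest means were those of *Pdpn* (podoplanin), *Sema3d* (a guidance molecule made by epicardium), and *Aldh1a2* (the retinoic acid synthesis enzyme of epicardium and mesothelium). *Pdpn* was at 17.3, 19.4, and 56.1 FPKM in WT0 to WT2 and at 6.61, 35.2, and 52.3 FPKM in KO0 to KO2. *Aldh1a2* was at 5.71, 15.9, and 30.6 FPKM in WT0 to WT2 and at 12.6, 19.1, and 42.8 FPKM in KO0 to KO2. *Sema3d* was lowest in KO0, at 8.50 FPKM, and highest in KO2, at 42.1 FPKM. In *Pdpn* and *Aldh1a2*, WT0 and KO0 were the lowest libraries and WT2 and KO2 were the highest. *Slpi*, a secreted protease inhibitor, was listed at 0 in all libraries. *Upk3bl* was at 3.61 FPKM in KO0 alone and *Calb2* at 1.81 FPKM in WT0 alone. Like *Slpi*, both fell under the filter and are not in the counts by library below.

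The 11 listed mesothelial genes tended to order the libraries alike, across both groups, though not all did. The 11 listed genes deviated from their own mean over the 6 libraries, on log2(FPKM + 0.1), by a median of −1.40 in WT0, 0.026 in WT1, and 0.55 in WT2. In KO0, KO1, and KO2 the median deviation was −0.88, 0.15, and 1.07. All 11 were above their mean in KO2, and only 1 was in WT0 and in KO0. KO2 was the highest library for 9 of the 11 and WT2 for the other 2. WT0 was the lowest for 6, KO0 for 3, and WT2 for 2. *Wt1*, *Msln*, and *Upk3b* were not used in these counts, and their sum, 21.6, 41.9, and 124 FPKM in WT0 to WT2 and 31.1, 86.7, and 117 FPKM in KO0 to KO2, was likewise lowest in WT0 and KO0. Singly, these genes agreed less. On the same scale, Pearson r over the 6 libraries was 0.16 for *Wt1* with *Msln*, 0.44 for *Wt1* with *Upk3b*, and 0.42 for *Msln* with *Upk3b*. *Msln* was lowest in WT1, and *Wt1* was above its mean in KO0.

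**Figure D4:**
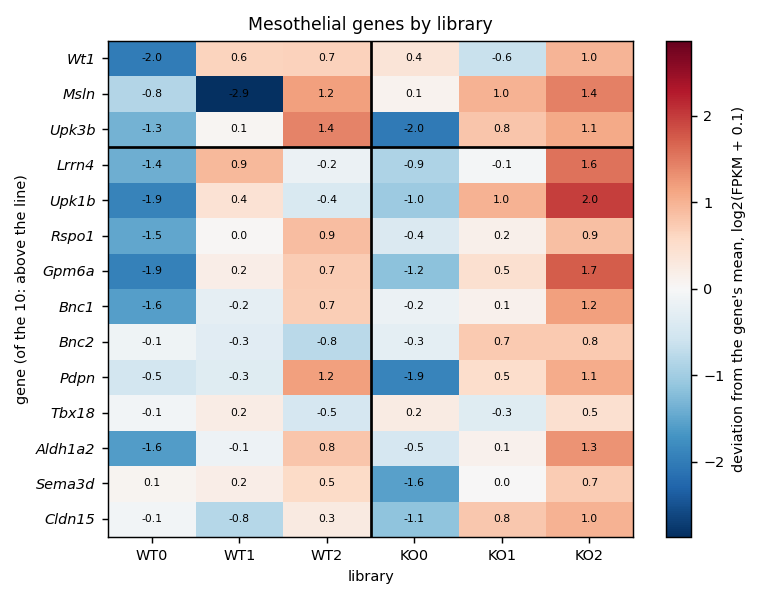
Deviation of each mesothelial gene from its own mean over the 6 libraries, in log2(FPKM + 0.1) units, with red for above and blue for below, and *Wt1*, *Msln*, and *Upk3b* above the horizontal line. The columns of WT0 and KO0 are mostly blue and that of KO2 is red throughout, on either side of the line between the groups.

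Other cell types also differed between these libraries. The sum of 6 fibroblast genes was 3127, 4629, and 5988 FPKM in WT0 to WT2 and 2387, 4971, and 5216 FPKM in KO0 to KO2. It was thus lowest in WT0 and KO0, as the median deviation of the listed mesothelial genes was. The sum of 7 leukocyte genes was 29.7, 106, and 216 FPKM in WT0 to WT2 and 36.0, 251, and 193 FPKM in KO0 to KO2, with the same 2 libraries lowest. The sum of 9 smooth muscle genes was highest in WT0, at 5762 FPKM, and lowest in KO2, at 912 FPKM. The median deviation of the listed mesothelial genes was lowest in WT0 and highest in KO2. In bulk RNA a smaller number of cells of a type and less RNA per cell cannot be told apart, and the part of adjoining tissue in the mesothelial values was not tested. Endothelial sums were 284 to 430 FPKM in WT and 355 to 537 FPKM in KO, and all 6 thymocyte genes had a mean under 1 FPKM.

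Schwann cell and neuron genes separated the groups in their sums, as did several other lists. The sum of 7 Schwann cell genes was 12.6 to 15.4 FPKM in WT and 24.1 to 110 FPKM in KO, and that of 7 neuron genes was 7.46 to 19.7 FPKM in WT and 39.8 to 53.0 FPKM in KO, with 0 genes of either list called. The erythroid sums were 4355 to 8749 FPKM in WT and 4980 to 27521 FPKM in KO. Cartilage sums, at 24.3 to 47.7 FPKM over all libraries, overlapped between the groups. Brown fat sums were 55.2 to 130 FPKM in WT and 20.5 to 52.9 FPKM in KO, and so also separated the groups. *Fabp4* had the highest mean of that list, and its groups overlapped. It was at 63.1, 47.0, and 117 FPKM in WT0 to WT2 and at 9.10, 32.6, and 47.3 FPKM in KO0 to KO2. *Ucp1*, of the same list, was listed at 0 in all libraries. The sums of smooth muscle and thymocyte genes separated the groups too. Sums of the epithelial junction and keratin genes were 107 to 183 FPKM in WT and 92.0 to 104 FPKM in KO, which likewise did not overlap. *Cdh3* had the highest mean of that list and was its only tested gene whose groups did not overlap. The number of its 26 genes above 0 went the other way. It was 12, 13, and 10 in WT0 to WT2 and 16, 15, and 20 in KO0 to KO2. The part of other cell types in the levels of the 10 genes was not tested.

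Over the 6 libraries, the genes whose levels were most like those of *Upk3b*, by Pearson r of log2(FPKM + 0.1) among 11019 genes, were *Ndufc2* (r = 0.991), *Eps8*, *Pla2g7*, and *Col3a1* (r = 0.987 each), and *Igf2bp2* (r = 0.983). *Col3a1*, a fibroblast collagen gene, was at 894, 1215, and 2074 FPKM in WT0 to WT2 and at 617, 1637, and 1610 FPKM in KO0 to KO2. With 6 libraries and 11019 genes, 43 genes had an r over 0.95, so these values describe the order of the libraries only. For *Epcam*, listed at 0 in 4 libraries, the likeness rests on WT1 and KO2, and the leading genes were *Rbbp8*, *Cers6*, *Pds5b*, *Sec23ip*, and *Bambi* (r = 0.962 to 0.986). Within the set, r was 0.80 between *Krt19* and *Upk3b*, 0.78 between *Krt8* and *Msln*, and −0.096 between *Krt8* and *Krt18*. The level of *Krt19* over that of *Upk3b* was 0.628 to 0.858 in 5 libraries and 3.15 in KO0. All these values share libraries and their makeup.

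The cadherin complex was present even though *Cdh1* was near 0. Of 11 genes of the complex and of the regulators of the epithelial-mesenchymal transition, all had a mean over 1 FPKM, with a median of the means of 35.2 FPKM. The highest were the catenins *Ctnnb1*, *Ctnna1*, and *Ctnnd1*, which bind cadherins or link them to actin and are made by most cell types. *Ctnnb1* was at 162 to 266 FPKM in WT and 195 to 284 FPKM in KO. *Ctnna1* was the steadiest, at 105 to 118 FPKM in WT and 107 to 116 FPKM in KO, with a log2 fold change of 0.0034 (SE 0.14). N-cadherin, encoded by *Cdh2*, had a mean of 35.2 FPKM, against 0.331 FPKM for *Cdh1*.

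Of the 4 repressors named above, *Snai2*, *Zeb1*, and *Zeb2* were above 0 in every library. *Snai1* was at 5.04, 4.52, and 0 FPKM in WT0 to WT2 and at 1.44, 1.76, and 1.94 FPKM in KO0 to KO2. *Zeb2* was at 45.7, 56.2, and 52.3 FPKM in WT0 to WT2 and at 59.5, 71.7, and 89.1 FPKM in KO0 to KO2, so the groups did not overlap. The log2 fold change of *Zeb2* was 0.50 (SE 0.20, 95% interval 0.042 to 0.96), with an unadjusted p of 0.036 and an adjusted p of 0.591 in limma. The groups overlapped for the other 10 genes of this list, whereas those of 16.1% of all genes tested did not overlap. By the fitted value 7 of the 11 were higher, against 55.6% of all genes tested, and none of the 11 passed the test. The mean of *Snai2* was 28.3 FPKM and that of *Zeb1* 43.5 FPKM, with log2 fold changes of 0.022 and 0.0070. The median log2 fold change of the 11 was 0.0070.

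*Cdh3*, which lies beside *Cdh1* on chromosome 8, had the highest level of the junction list. *Cdh3* runs from 106510891 to 106557297 and *Cdh1* from 106603351 to 106670246, both on the plus strand, with 46053 bases between them. *Cdh3* was at 57.8, 47.5, and 45.2 FPKM in WT0 to WT2 and at 41.1, 38.1, and 19.3 FPKM in KO0 to KO2. The groups did not overlap, with KO lower, and the log2 fold change of −0.68 (SE 0.30, 95% interval −1.38 to 0.027) did not pass the test (limma adjusted p = 0.609). *Cdh3* ranked the 6 libraries in the same order as the sum of the 9 smooth muscle genes, from WT0, the highest, through WT1, WT2, KO0, and KO1 to KO2, the lowest. Of the 9 junction and keratin genes tested, 4 were higher and 5 lower in KO by the fitted value, 1 gene, *Cdh3*, had groups that did not overlap, against 16.1% of all genes tested, and the median log2 fold change was −0.62.

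Among the other epithelial lists, *Abca3*, a lipid transporter of alveolar type II cells that other cells also make, was at 4.99, 5.99, and 6.23 FPKM in WT0 to WT2 and at 6.63, 13.3, and 9.83 FPKM in KO0 to KO2. The groups did not overlap, and the gene did not pass the test (limma adjusted p = 0.624). *Cbr2*, a carbonyl reductase of lung, was at 33.2, 10.6, and 8.03 FPKM in WT0 to WT2 and at 8.54, 5.05, and 2.50 FPKM in KO0 to KO2. Its log2 fold change was −1.55 (SE 0.64), with an unadjusted p of 0.043 and an adjusted p of 0.591 in limma, and the groups overlapped. Of the 5 airway genes tested, 1, *Abca3*, had groups that did not overlap, against 16.1% of all genes tested. By the fitted value 3 of the 5 were higher and 2 lower, with a median log2 fold change of 0.73. Of the 6 oesophageal genes tested, 3 were higher and 3 lower, with a median of 0.18 and no gene whose groups did not overlap.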

How the data were processed

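RNA was harvested with the miRNeasy Micro Kit from flash-frozen DA of E17.5 embryos, 3 libraries per group, and the authors removed low-quality and short reads and aligned the rest to mm10 with TopHat2. The deposited table holds FPKM values that the authors made with Cufflinks, 1 per gene and library. The versions, the gene annotation, the scaling, and the use of strand are not given in the sources used here. FPKM removes gene length but not the makeup of a library, so a rise of abundant transcripts lowers the others. All 6 value columns were matched to libraries by their titles. The number of reads per library is unknown, and no counting interval was computed. The steps between low values gave relative depths of 0.929 to 1.19 of that of WT1. The search was limited to ratios near 1, so a large difference in depth could not have been found. The value of WT2 rested on 127 low genes.

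The deposited FPKM values were taken to log2(FPKM + 0.1), and the 12955 genes with a mean of at least 1 FPKM were tested with limma 3.58.1 in R 4.3.3, with a mean-variance trend, two-sided, and with Benjamini-Hochberg adjustment over all of them at 0.05. A fold change is on this scale, which understates changes of low genes. The files hold FPKM, so count models were not used. Intervals are 95% intervals from the same fit. Single genes were also compared by two-sided exact permutation tests over the 20 assignments of the libraries. The steps were checked on simulated data. The labels do not say that libraries of a group came from separate animals, so p-values measure the spread between these libraries, which may be technical in part.

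The 10 genes and all gene lists were chosen with earlier results of these data known. Besides the 10, the genes to name were *Prdm6*, the 3 with the highest mean in each list and any called there, the 5 most like *Upk3b* and the 5 most like *Epcam*, and keratins with a mean of at least 1 FPKM. Lists for other cell types are given as sums, with *Fabp4* and *Ucp1* named beside that of brown fat. *Cldn6*, *Esrp1*, *Ap1m2*, *Spint2*, *Lsr*, *Slpi*, *Upk3bl*, *Calb2*, *Ucp1*, *Scgb1a1*, *Sftpc*, *Foxa2*, *Zeb1*, *Zeb2*, *Snai2*, *Snai1*, *Cdh2*, *Xist*, and *Ddx3y* were chosen after their values were seen. Gene positions are those of GENCODE vM21 on GRCm38, the assembly also called mm10, and promoter windows are those of RefSeq on GRCm38.p6. Alternatives changed the pseudocount, the filter, the scaling, the trend, the replicate block, and the libraries used. The omission of WT1 and KO2 was added after the data were seen.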

Additional observations from a re-analysis of the deposited data

How the results depend on the processing

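The number of the 10 genes called was 0 in the limma fit under all 15 alternatives, and their lowest adjusted p was 0.470, for *Msln* without WT2. The median log2 fold change of the tested genes was 0.011 to 0.90 over the alternatives. Over the whole table, 2 genes were called without the trend, 3 without WT1 and KO2, and 1 to 3 with each library left out in turn, against 1. The number of the 10 genes whose groups did not overlap was 2 without WT1 and KO2, against 38% of all genes tested. It was 0 to 2 with each library left out, against 24% to 28.9% of all genes tested. *Krt8*, *Krt18*, *Krt19*, and *Msln* kept their direction throughout. *Nkx2-1* reversed under quantile normalization (−0.57) and without WT1 (−0.039), KO0 (−0.27), or KO1 (−0.26). *Upk3b* reversed under quantile normalization (0.0058) and without WT2 (0.60) or KO0 (0.90), and *Wt1* reversed without WT0 (−0.41). Over the fits that omit a single library, the change was −0.27 to 0.65 for *Nkx2-1*, −0.41 to 0.93 for *Wt1*, and −0.79 to 0.90 for *Upk3b*. The cause was not tested, except that fewer libraries enter a fit without 1 of them, and the median of all genes moved from 0.072 to 0.0083 under quantile normalization. With the replicate number as a block, 1 of the 10 genes, *Msln*, had an unadjusted p under 0.05 (0.041), with an adjusted p of 0.563 in limma, and 1 gene was called over the whole table. Deviations of libraries with the same number correlated at 0.12, −0.076, and −0.0088, and those with different numbers at −0.12 to 0.14. Such correlations over all genes cannot show whether the numbers pair the libraries, which the labels do not say. With the block, the SE fell from 0.93 to 0.31 for *Upk3b* and from 0.60 to 0.32 for *Krt19*. It also fell for *Wt1* and *Msln*, and it rose for *Krt8*, *Krt18*, and *Nkx2-1*. The unknown depth and the listed zeros limit what can be said of *Cdh1*, *Epcam*, and *Krt5*.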
